A study of Mus musculus with 12 samples.

Results

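The semaphorin, ephrin, Slit and netrin systems are families of secreted or membrane-bound cues and their receptors, first known from axon guidance and also used by blood vessels and epithelia. Their expression was followed in whole mouse lungs across birth. The members were the genes of the count table whose symbol names a semaphorin of classes 3 to 7, a plexin, an ephrin, an Eph receptor, a Slit, a Robo receptor, a netrin or an Unc5 receptor, and 62 of its 16152 genes matched. They were 7 class 3 semaphorins, 13 semaphorins of classes 4 to 7, 10 plexin entries, 5 ephrin-A and 3 ephrin-B genes, 7 EphA and 5 EphB receptors, 2 Slit, 3 Robo, 3 netrin and 4 Unc5 genes. One of the plexin entries is *Plxna4os1*, a non-coding RNA from the opposite strand of the *Plxna4* locus. The lungs came from wild-type C57BL/6 mice, untreated and of both sexes, at the embryonic time-points E15.5 and E18.5 and at the postnatal time-points P5 and P8, with 3 libraries at each. The 3 libraries of a time-point are from animals of 1 litter, so litter and time-point cannot be told apart, and a p-value measures the spread between littermates. These are bulk libraries, in which fewer cells of a type and less RNA per cell cannot be told apart.

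Class 3 semaphorins are secreted and bind neuropilins, which pair with plexins, whereas semaphorins of the other classes are mostly tethered to membranes and bind plexins directly. Ephrin-A ligands are held by a lipid anchor and favour EphA receptor tyrosine kinases, and ephrin-B ligands span the membrane and favour EphB receptors. Slit proteins bind Robo receptors, and netrins, relatives of laminins, bind receptors that include the Unc5 family. In the vasculature, *Efnb2* is known as an arterial and *Ephb4* as a venous gene, and *Plxnd1*, *Robo4* and *Unc5b* are known from endothelial cells.

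The reads counted per library ranged from 41337443 to 53901957, and levels are given as the deposited CPM, in which the reads of a gene are scaled by the mapped reads of the library. Fold changes are from edgeR's quasi-likelihood test in a single fit of the 12 libraries, over 15994 genes that reached 1 CPM in 3 libraries or more, and are given with their standard error (SE). A gene is said to have risen or fallen when its log2 fold change lay beyond 1 in either direction at a false discovery rate (FDR) under 0.05. Of the 62 members, 61 entered the test, and *Ntn5* was too low for it. The lung marker *Nkx2-1* was between 136 and 236.6 CPM in every library. Genes of the thymus, which lies beside the lung, stood more than 10 times above the lowest library of their time-point in E15.5 replicate 2, P8 replicate 1 and P8 replicate 2, with summed levels of 21.4, 148 and 288 CPM. Cardiac muscle genes summed to 1140 and 1432 CPM in E15.5 replicates 1 and 2 against 58.6 CPM in replicate 3.

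Across birth, from E18.5 to P5, 26 of the 61 members changed, with 14 higher and 12 lower at P5. This is 42.6% of the members beside 26.8% of all genes tested, and by direction 17.5% of all genes rose and 9.34% fell. Before birth, between E15.5 and E18.5, *Epha8* fell and no other member changed, where 3.04% of all genes were called and 1.46% fell. After birth, from P5 to P8, no member was past both cutoffs, where 2.96% of all genes were. Over the whole span from E15.5 to P8, 13 members were higher and 11 were lower, beside 20.9% and 11.5% of all genes and 32.3% in either direction. With the FDR cutoff alone, 20 members passed between E15.5 and E18.5 (21.5% of all genes), 52 across birth (71.1%) and 54 over the whole span (76.3%). The median log2 fold change of the members across birth was 0.09, and that of all genes was -0.0024. Marker genes of several cell types moved over the same interval. The 12 endothelial markers summed to between 1508 and 1644 CPM at E18.5 and between 3348 and 3529 CPM at P5, and 9 of the 12 rose. All 8 leukocyte markers rose, and 7 of 8 proliferation genes fell. The part of these shifts in the members' changes was not tested.

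**Figure D1:**
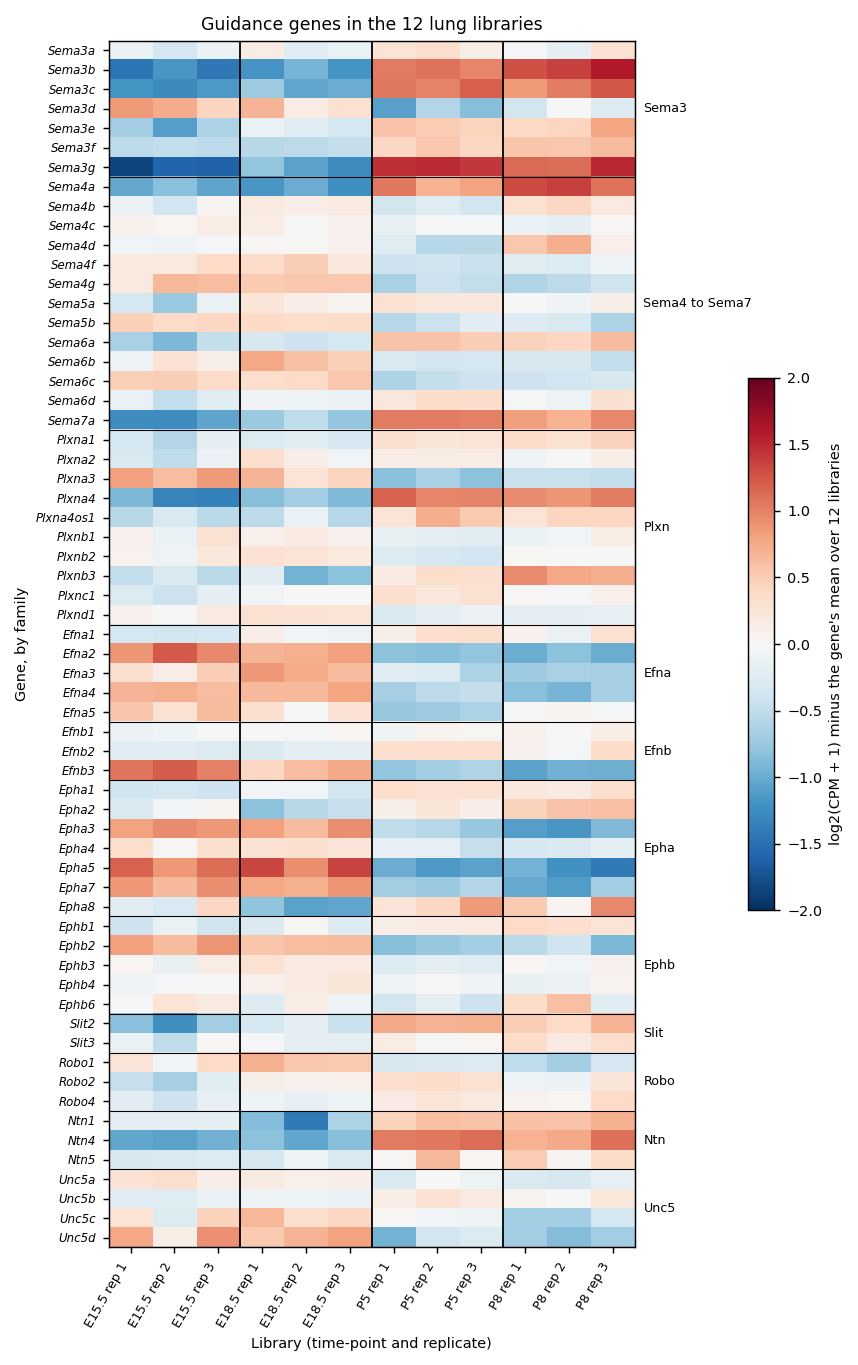
Expression of the 62 members in the 12 libraries, as log2(CPM + 1) minus the mean of each gene over all libraries (red above, blue below), with genes grouped by family and libraries by time-point. The strongest contrast lies between the 3 E18.5 and the 3 P5 libraries, where *Sema3b*, *Sema3c*, *Sema3g*, *Sema4a*, *Sema7a*, *Plxna4* and *Ntn4* turn from blue to red and *Epha5*, *Epha3* and *Efnb3* from red to blue.

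**Figure D2:**
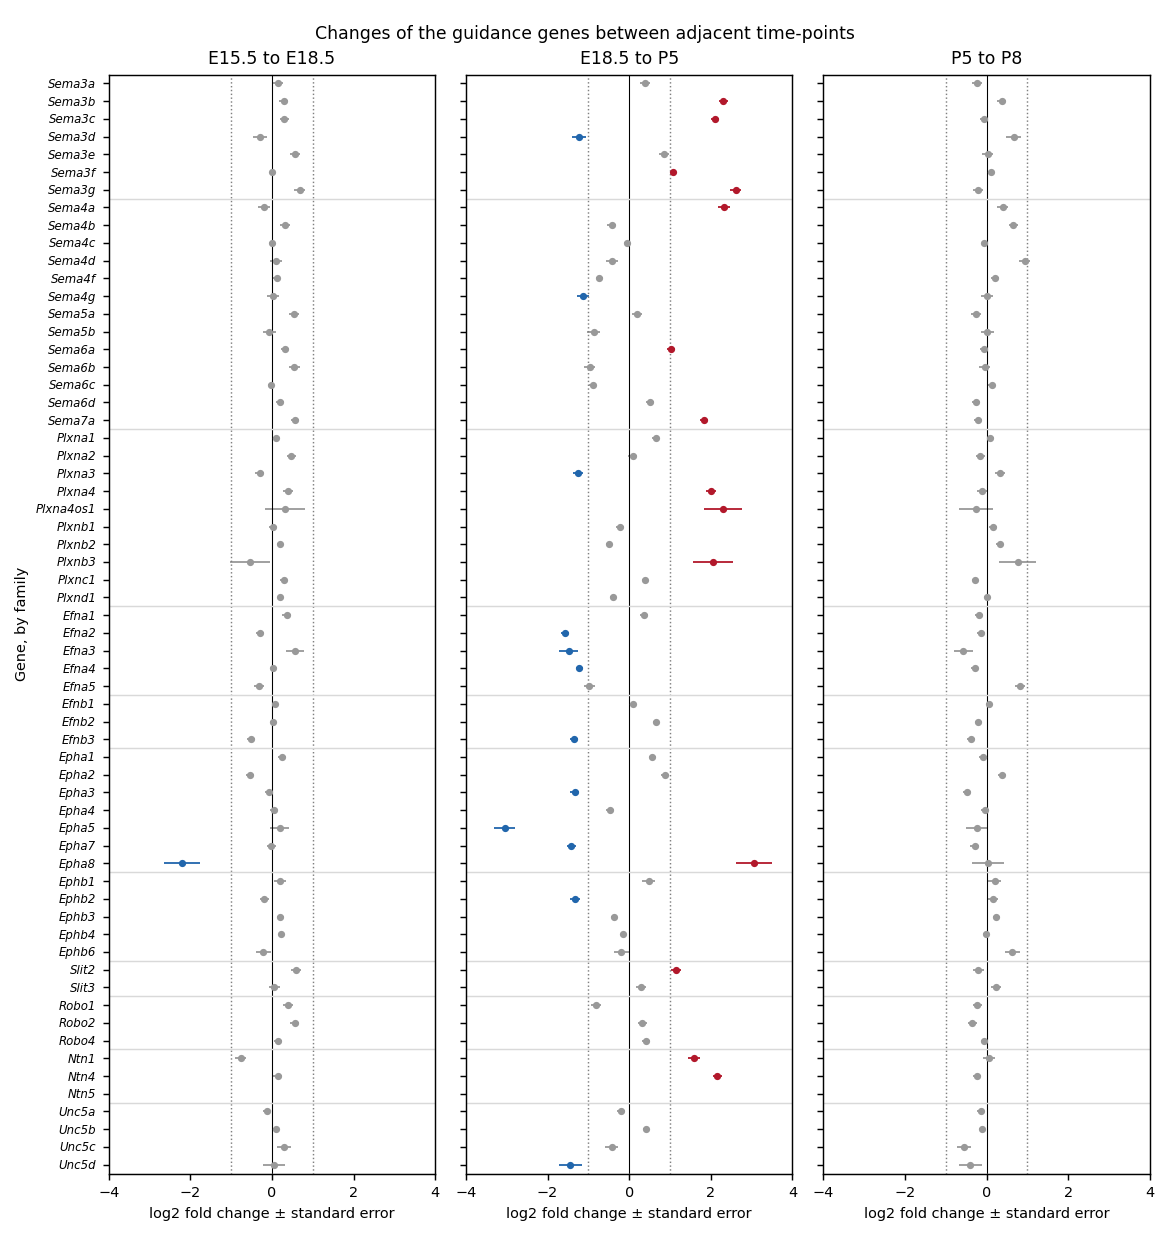
Log2 fold change of each tested member, with its standard error as a bar, between adjacent time-points. Dotted lines mark the cutoff of 1, and red and blue points are the members called higher or lower: 1 in the left panel, 26 in the middle one and none in the right one.

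The stretches upstream of 4 changed members are shown for their base composition and for 2 short core-promoter motifs, beside the direction in which each moved across birth. Each line holds the 150 bases before the RefSeq start on GRCm38, 5′ to 3′ on the gene's strand, and capitals mark GGGCGG (the GC box) or TATAAA (the TATA box) on either strand. The windows are chr14:31217723-31217872 for *Sema3g*, chr9:57939962-57940111 for *Sema7a* and chr5:47983005-47983154 for *Slit2*, which are on the plus strand, and chr5:84417383-84417532 for *Epha5*, which is on the minus strand. *Sema3g*, *Sema7a* and *Slit2* were among the members that rose, and *Epha5* had the largest fall. Gene coordinates elsewhere are from Gencode, whose start lies 13 bases from the RefSeq start for *Sema3g* and 17 bases for *Slit2*.
Sema3g: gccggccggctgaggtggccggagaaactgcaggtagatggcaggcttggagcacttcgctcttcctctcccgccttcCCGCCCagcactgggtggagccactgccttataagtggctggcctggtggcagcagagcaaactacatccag
Sema7a: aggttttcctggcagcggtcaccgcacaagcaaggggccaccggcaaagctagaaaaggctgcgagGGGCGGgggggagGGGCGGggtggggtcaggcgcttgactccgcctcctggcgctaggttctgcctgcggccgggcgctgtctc
Slit2: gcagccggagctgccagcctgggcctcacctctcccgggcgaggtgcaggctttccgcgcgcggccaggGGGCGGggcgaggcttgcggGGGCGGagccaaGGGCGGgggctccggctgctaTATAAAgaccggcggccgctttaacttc
Epha5: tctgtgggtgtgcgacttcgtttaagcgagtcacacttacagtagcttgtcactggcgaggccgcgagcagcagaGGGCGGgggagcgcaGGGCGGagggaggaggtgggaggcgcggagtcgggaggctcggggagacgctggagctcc
The *Sema3g* stretch holds 6 CpG dinucleotides and 1 GC box, beside 12 CpG and 2 GC boxes for *Sema7a*, 16 and 3 for *Slit2* and 14 and 2 for *Epha5*. TATAAA was found in the *Slit2* stretch alone of these 4. Over the full RefSeq windows of 300 bases, 48 members had an entry within 500 bases of the annotated gene start. GGGCGG was present in 35 of these 48 (72.9%) and in 63.2% of the windows of 10304 genes of the count table. TATAAA was present in 2 of the 48 (*Efnb2* and *Slit2*, 4.17%) beside 7.61% of all windows, and the ETS-type letters CCGGAAG in 2 (*Ephb6* and *Plxnb1*, 4.17%) beside 17.3%. A match of letters is a description of the sequence and no evidence of binding.

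The class 3 semaphorins held the most changed members of any family, with 4 of 7 higher and 1 lower across birth. Per length of exon, the family summed to 38.0 ± 0.887 CPM per kb at E15.5 (SD, n = 3) and later, at E18.5, to 44.9 ± 3.37. The postnatal sums were higher, 127 ± 1.20 at P5 and 128 ± 15.2 at P8. *Sema3g*, a cue of arterial endothelium (chr14:31217860-31230352, plus strand), was at 15.3, 18.46 and 18.1 CPM (E15.5), 32.9, 26.7 and 23.3 (E18.5), 159.7, 163 and 154 (P5) and 126, 125 and 165 (P8). Every P5 and P8 library lay above every embryonic one, and the log2 fold change across birth was 2.61 (SE 0.14, edgeR FDR = 1.1e-08), or 6.11-fold. It had also moved by 0.68 (edgeR FDR = 0.0053) before birth, short of the fold cutoff, with no overlap between these groups. *Sema3c*, a gene needed for septation of the cardiac outflow tract, was the highest of the family per length, at 21.7 CPM per kb over the 12 libraries. Its levels were 52.1, 49.3 and 53.6 CPM (E15.5), 72.4, 58.3 and 59.8 (E18.5), 249.8, 241 and 277 (P5) and 218, 245 and 286 (P8), with all 6 postnatal libraries above all 6 embryonic ones. The change across birth was 2.096 (SE 0.10, edgeR FDR = 6.9e-09) on the log2 scale. *Sema3b*, known as a tumour suppressor, was at 9.43, 11.9 and 9.70 CPM (E15.5), 11.8, 14.1 and 11.6 (E18.5), 58.2, 60.2 and 55.5 (P5) and 68.7, 73.5 and 85.8 (P8). It rose by 2.299 (SE 0.11, edgeR FDR = 5.6e-09) across birth and moved by a further 0.37 (edgeR FDR = 0.030) from P5 to P8, where the 3 libraries of P8 all lay above those of P5.

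The fourth class 3 semaphorin that rose was *Sema3f*, a neuropilin-2 ligand, at 60.9, 62.2 and 60.9 CPM (E15.5), 59.4, 60.9 and 63.2 (E18.5), 118, 128 and 118 (P5) and 130.1, 128 and 138 (P8). The embryonic libraries spanned less than 4 CPM and every postnatal library stood clear of them, with a log2 fold change across birth of 1.07 (SE 0.0506, edgeR FDR = 4.8e-09). *Sema3e*, which binds *Plxnd1* without a neuropilin, was at 52.9, 39.9 and 56.2 CPM (E15.5), 78.7, 72.8 and 67.8 (E18.5), 129, 124 and 118 (P5) and 115, 117 and 150.4 (P8). No single step took it past both cutoffs: it moved by 0.56 (edgeR FDR = 0.010) before and 0.85 (edgeR FDR = 6.7e-05) across birth, and by 1.43 (edgeR FDR = 5.4e-07) over the whole span, which passed. *Sema3d* was the one that fell, with 28.6, 26.5 and 20.98 CPM (E15.5), 25.3, 17.2 and 19.3 (E18.5), 6.74, 9.97 and 8.09 (P5) and 11.698, 15.45 and 12.5 (P8). Its change across birth was -1.24 (SE 0.18, edgeR FDR = 4.2e-05), and at P8 all 3 libraries were again above those of P5, by 0.66 (edgeR FDR = 0.024) on the log2 scale. *Sema3a*, the founding ligand of neuropilin-1, was between 58.4 and 94.4 CPM in all 12 libraries, with a difference of 0.39 (edgeR FDR = 0.017) across birth, under the fold cutoff.

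Among the 13 membrane semaphorins, *Sema4a*, *Sema6a* and *Sema7a* rose across birth, *Sema4g* fell, and 9 did not pass both cutoffs. *Sema7a*, a lipid-anchored semaphorin that binds integrins and plexin C1 (chr9:57940112-57962865, plus strand), was at 13.4, 13.3 and 15.46 CPM (E15.5), 19.5, 23.1 and 19.04 (E18.5), 69.3, 69.3 and 67.9 (P5) and 59.99, 54.6 and 65.7 (P8). It was the highest of this group per length, its postnatal libraries all lay above the embryonic ones, and it rose by 1.83 (SE 0.10, edgeR FDR = 1.2e-08). *Sema4a*, known from immune cells, was at 4.44, 5.13 and 4.31 CPM (E15.5), 3.90, 4.52 and 3.68 (E18.5), 21.7, 16.8 and 18.1 (P5) and 26.1, 27.4 and 22.5 (P8). Its change of 2.32 (SE 0.14, edgeR FDR = 3.3e-08) ran alongside the rise of all 8 leukocyte markers, whose summed level went from between 44.4 and 48.7 CPM at E18.5 to between 454 and 506 CPM at P5. The part of leukocytes in the *Sema4a* change was not tested.

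*Sema6a*, a transmembrane ligand of plexin A2 and A4, was at 29.1, 24.1 and 32.96 CPM (E15.5), 36.6, 34.1 and 35.8 (E18.5), 68.9, 68.6 and 65.4 (P5) and 63.7, 61.5 and 71.6 (P8). The groups either side of birth did not overlap, but the fold change of 1.02 (SE 0.10, edgeR FDR = 2.1e-06) lay at the cutoff and fell short of it without E18.5 replicate 2 (0.99), without P5 replicate 1 (0.97) and with library size in place of TMM (0.95). *Sema4g* was low, at 7.84, 11.3 and 10.8 CPM (E15.5), 10.1, 10.1 and 10.1 (E18.5), 3.92, 4.75 and 4.45 (P5) and 4.06, 4.38 and 4.83 (P8), and fell by 1.13 (SE 0.14, edgeR FDR = 1.7e-05). Of the 9 others, *Sema6b* (-0.97), *Sema6c* (-0.90), *Sema5b* (-0.87), *Sema4f* (-0.73), *Sema4b* (-0.43) and *Sema4d* (-0.42) were under an edgeR FDR of 0.05 with smaller falls, *Sema6d* was at 0.50 on the same criterion, and *Sema4c* and *Sema5a* were above that FDR (edgeR FDR = 0.43 and 0.19). *Sema6b* passed both cutoffs without E18.5 replicate 3 (-1.04) or P5 replicate 1 (-1.03).

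The plexins receive semaphorin signals, and of their 10 entries 3 rose and 1 fell across birth. *Plxna4*, a receptor partner for *Sema3a* and class 6 semaphorins, was at 14.7, 10.7 and 10.48 CPM (E15.5), 15.2, 17.02 and 14.8 (E18.5), 65.1, 56.1 and 56.8 (P5) and 55.5, 52.7 and 58.0 (P8). The lowest postnatal library, at 52.7 CPM, was more than 3 times the highest embryonic one, at 17.02 CPM, and the log2 fold change was 2.01 (SE 0.12, edgeR FDR = 3.4e-08). The antisense entry *Plxna4os1* rose with it, at 0.178, 0.393 and 0.197 CPM (E15.5), 0.205, 0.574 and 0.165 (E18.5), 1.08, 1.86 and 1.48 (P5) and 1.09, 1.34 and 1.30 (P8), by 2.295 (SE 0.46, edgeR FDR = 0.00064). It rests on 9 to 90 reads per library, it shares no exon bases with *Plxna4*, and without E18.5 replicate 2 its change was 3.05. Whether the reads were assigned by strand is not given in the sources used here. *Plxnb3*, a receptor for *Sema5a*, was also near the floor, at 0.581, 0.806 and 0.531 CPM (E15.5), 0.903, 0.153 and 0.256 (E18.5), 1.49, 1.82 and 1.79 (P5) and 3.28, 2.74 and 2.68 (P8). E18.5 replicate 1 stood above the other two libraries of its group, and the change of 2.04 (SE 0.49, edgeR FDR = 0.0023) was 3.13 without it and 1.63 without E18.5 replicate 2.

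*Plxna3*, a receptor partner for *Sema3f*, fell by 1.25 (SE 0.12, edgeR FDR = 1.1e-06), with levels of 27.5, 23.8 and 28.1 CPM (E15.5), 24.7, 18.4 and 20.9 (E18.5), 8.01, 9.27 and 8.10 (P5) and 10.8, 10.8 and 10.54 (P8). The most abundant plexin per length was *Plxnd1*, the endothelial receptor of *Sema3e*, at 346, 325 and 369 CPM (E15.5), 401, 397 and 395 (E18.5), 267, 283 and 298 (P5) and 282, 285 and 291 (P8). All 3 libraries of P5 were below all 3 of E18.5, and the change of -0.41 (edgeR FDR = 4.5e-05) was under the fold cutoff and opposite in sign to that of *Sema3e*. *Plxnb2* moved by -0.49 (edgeR FDR = 0.00012) and *Plxna1* by 0.64 (edgeR FDR = 3.9e-05), and 10.71% of the exon bases of *Plxna1* are shared with *Gm26811* on the opposite strand. Summed per length, the plexins had their highest mean just before birth, 145 ± 3.13 CPM per kb (E18.5), and their lowest after it, 122 ± 0.756 (P5). The P8 mean, 132 ± 3.55, was close to the starting one, 129 ± 12.5 (E15.5), and every P8 library lay within the E15.5 range. Each ± is the SD of 3 libraries. The class 3 semaphorin sum moved opposite to the plexin sum from E18.5 to P5, and over the whole span no fall of the plexin sum was seen.

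Of the 5 ephrin-A ligands, 3 fell across birth and none rose. *Efna2* was at 31.5, 40.4 and 33.5 CPM (E15.5), 27.3, 28.02 and 30.2 (E18.5), 8.98, 8.79 and 9.19 (P5) and 7.84, 8.98 and 7.86 (P8). No embryonic library was under 27.3 CPM and no postnatal one above 9.19 CPM, and it fell by 1.58 (SE 0.10, edgeR FDR = 3.5e-08). *Efna4* was at 29.2, 29.7 and 27.8 CPM (E15.5), 28.5, 28.3 and 31.4 (E18.5), 10.9, 12.04 and 12.5 (P5) and 9.54, 8.82 and 10.9 (P8) and fell by 1.23 (SE 0.0868, edgeR FDR = 9.5e-08), again with no overlap. *Efna3* was lower throughout, at 3.002, 2.52 and 3.501 CPM (E15.5), 4.89, 4.38 and 3.99 (E18.5), 1.73, 1.65 and 1.07 (P5) and 0.965, 1.05 and 1.04 (P8), and fell by 1.48 (SE 0.23, edgeR FDR = 8.0e-05). Exons of *Efna3* and *Efna4* share 14.1% and 10.51% of their bases with a gene on the opposite strand, so part of these reads cannot be assigned with certainty. *Efna5* was at 11.5, 9.46 and 12.2 CPM (E15.5), 9.56, 7.54 and 9.36 (E18.5), 3.998, 4.15 and 4.50 (P5) and 7.39, 7.86 and 7.35 (P8), a change of -0.98 (edgeR FDR = 2.7e-05) that sat at the cutoff and passed it without E18.5 replicate 2 (-1.08) or P5 replicate 3 (-1.02). It then moved back by 0.82 (edgeR FDR = 0.0032) from P5 to P8.

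The main ephrin-A by level was *Efna1*, a ligand induced in endothelium by inflammatory signals, which was the highest of the family per length. It was at 63.9, 62.8 and 64.4 CPM (E15.5), 89.2, 78.3 and 76.0 (E18.5), 88.6, 103 and 105 (P5) and 86.6, 74.5 and 101 (P8), and its change across birth was 0.37 (edgeR FDR = 0.0061), opposite to the other ephrin-A genes. Among the ephrin-B ligands, *Efnb3* was at 22.7, 25.1 and 21.8 CPM (E15.5), 14.2, 16.4 and 18.2 (E18.5), 5.56, 6.05 and 6.43 (P5) and 4.39, 4.82 and 4.77 (P8) and fell by 1.35 (SE 0.10, edgeR FDR = 2.0e-07) across birth. It was below its E15.5 level already at E18.5 (-0.51, edgeR FDR = 0.0057) and over the whole span fell by 2.24 (edgeR FDR = 2.6e-09). *Efnb1*, the highest of the 3 per length, was at 115, 118 and 124 CPM (E15.5), 124, 122 and 129 (E18.5), 118, 132 and 127 (P5) and 132, 126 and 136 (P8), and no change across birth was detected (0.09, edgeR FDR = 0.16). *Efnb2*, the arterial ligand, was at 136, 137 and 134 CPM (E15.5), 132, 140.2 and 141 (E18.5), 205, 203 and 203 (P5) and 172, 158 and 209 (P8). All P5 libraries were above all embryonic ones, by 0.65 (edgeR FDR = 1.5e-05) across birth, under the fold cutoff.

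Among the 7 EphA receptors, *Epha3*, *Epha5* and *Epha7* fell and *Epha8* rose across birth. *Epha3* was at 97.5, 108 and 102 CPM (E15.5), 98.2, 86.4 and 107 (E18.5), 38.6, 37.1 and 32.4 (P5) and 25.3, 24.1 and 29.5 (P8), and fell by 1.34 (SE 0.10, edgeR FDR = 2.0e-07) across birth, with a further change of -0.47 (edgeR FDR = 0.011) by P8. *Epha7* was at 65.1, 55.6 and 68.1 CPM (E15.5), 61.0, 58.5 and 65.96 (E18.5), 21.4, 20.7 and 23.2 (P5) and 16.9, 15.6 and 21.6 (P8) and fell by 1.42 (SE 0.11, edgeR FDR = 2.9e-07). *Epha5* (chr5:84054761-84417382, minus strand) had the largest fall of all members, with levels of 8.46, 6.64 and 8.10 CPM (E15.5), 9.63, 6.97 and 9.74 (E18.5), 1.11, 0.888 and 0.986 (P5) and 1.17, 0.817 and 0.575 (P8). The log2 fold change was -3.05 (SE 0.26, edgeR FDR = 4.5e-07), on 364 to 532 reads per library at E18.5 and 43 to 69 at P5. For all 3 receptors each postnatal library lay below each embryonic one. *Epha8* followed another course, at 1.27, 1.14 and 2.54 CPM (E15.5), 0.513, 0.268 and 0.293 (E18.5), 2.17, 2.54 and 3.78 (P5) and 2.81, 1.75 and 4.16 (P8). It fell by 2.20 (SE 0.44, edgeR FDR = 0.0061) before birth and rose by 3.06 (SE 0.45, edgeR FDR = 5.3e-05) across it, on 14 to 25 reads per library at E18.5, and E15.5 and P8 overlapped. Without E15.5 replicate 3 its change before birth was -1.74, and from E15.5 to P8 its change of 0.89 (edgeR FDR = 0.058) became 1.35 with an edgeR FDR of 0.010.

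*Epha1*, the highest EphA receptor per length, was at 27.3, 28.2 and 27.1 CPM (E15.5), 35.0, 34.8 and 27.9 (E18.5), 46.6, 44.5 and 45.3 (P5) and 42.4, 40.7 and 46.5 (P8), a change of 0.57 (edgeR FDR = 0.00011) across birth. *Epha2*, a receptor of epithelia and *Efna1*, moved down before birth (-0.53, edgeR FDR = 0.0043) and up across it (0.88, edgeR FDR = 5.7e-06), and *Epha4* moved by -0.48 (edgeR FDR = 0.0012) across birth. Of the 5 EphB receptors, *Ephb2* was at 41.5, 36.0 and 43.1 CPM (E15.5), 34.0, 35.6 and 36.1 (E18.5), 12.3, 13.1 and 13.95 (P5) and 15.6, 17.3 and 11.8 (P8) and fell by 1.34 (SE 0.12, edgeR FDR = 7.0e-07). *Ephb4*, the venous receptor of *Efnb2*, had the highest level per length of all 62 members, at 55.8 CPM per kb over the 12 libraries. Its values were 242, 251 and 257 CPM (E15.5), 278, 289 and 304 (E18.5), 239.7, 259 and 245 (P5) and 232, 238 and 271 (P8), with a change across birth of -0.14 (edgeR FDR = 0.051). *Ephb3* moved by -0.38 (edgeR FDR = 0.0010), *Ephb1* by 0.48 (edgeR FDR = 0.014) and *Ephb6* by -0.19 (edgeR FDR = 0.37). Across birth, 3 of 5 ephrin-A and 3 of 7 EphA members fell, beside 9.34% of all genes. Together these were 6 of the 12 falls among the 61 tested members. In the same 2 families *Epha8* rose, and *Efna1*, *Epha1* and *Epha2* moved up at an edgeR FDR under 0.05, short of the fold cutoff.

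*Slit2*, the ligand of *Robo1* and *Robo2*, was at 87.9, 66.9 and 97.4 CPM (E15.5), 123, 138 and 115 (E18.5), 268, 255 and 258 (P5) and 223, 208 and 257 (P8). Its postnatal libraries were all above the embryonic ones, with a rise of 1.14 (SE 0.13, edgeR FDR = 4.8e-06) across birth after 0.59 (edgeR FDR = 0.0079) before it. The call of *Slit2* across birth was lost when the fold change was tested against the cutoff (edgeR FDR = 0.22). *Slit3*, the higher of the pair per length, was at 56.3, 43.1 and 62.9 CPM (E15.5), 59.9, 54.2 and 54.1 (E18.5), 68.9, 60.3 and 63.6 (P5) and 80.4, 69.3 and 79.2 (P8), and its change across birth did not pass the FDR cutoff (0.29, edgeR FDR = 0.061). None of the 3 Robo receptors passed both cutoffs in any of the 4 comparisons. *Robo4*, the highest of them per length, was at 44.2, 38.1 and 45.4 CPM (E15.5), 47.9, 45.4 and 48.1 (E18.5), 57.6, 61.1 and 58.6 (P5) and 53.6, 52.2 and 67.5 (P8), with 0.41 (edgeR FDR = 0.0018) across birth. *Robo1* moved by -0.81 (edgeR FDR = 3.7e-05) and *Robo2* by 0.32 (edgeR FDR = 0.017) over the same interval, in opposite directions.

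Both tested netrins rose across birth. *Ntn1*, the classical netrin, dipped at E18.5, at 42.2, 42.8 and 42.9 CPM (E15.5), 26.2, 17.7 and 30.8 (E18.5), 66.4, 74.1 and 72.6 (P5) and 73.0, 72.4 and 79.9 (P8). Its change was -0.77 (edgeR FDR = 0.0043) before birth and 1.60 (SE 0.15, edgeR FDR = 8.8e-07) across it, so that from E15.5 to P8 it moved by 0.89 (edgeR FDR = 9.6e-05), under the fold cutoff. *Ntn4*, a basement membrane netrin that binds laminin, had no such dip, at 9.05, 8.77 and 9.60 CPM (E15.5), 10.7, 8.98 and 10.4 (E18.5), 41.4, 41.7 and 43.7 (P5) and 32.4, 33.9 and 43.1 (P8). It rose by 2.16 (SE 0.10, edgeR FDR = 5.9e-09), and its lowest postnatal library was about 3 times its highest embryonic one. *Ntn5* rested on 3 to 53 reads per library and was removed by the filter on low counts. Without that filter it was called higher both across birth (2.27, edgeR FDR = 0.0079) and from E15.5 to P8 (3.07, edgeR FDR = 0.0014), and 23.4% of its exon bases are shared with *Sec1* on the opposite strand. Of the 4 Unc5 receptors, *Unc5d* was low, at 6.55, 3.79 and 7.32 CPM (E15.5), 5.30, 6.13 and 6.72 (E18.5), 1.28, 2.39 and 2.65 (P5) and 1.70, 1.40 and 1.73 (P8), and fell by 1.44 (SE 0.28, edgeR FDR = 0.00055). *Unc5b*, the highest per length, was at 82.2, 80.1 and 86.3 CPM (E15.5), 89.7, 88.5 and 86.6 (E18.5), 106, 117 and 108 (P5) and 101, 95.1 and 112 (P8), with a difference across birth of 0.41 (edgeR FDR = 0.00011). *Unc5a* moved by -0.21 (edgeR FDR = 0.062) and *Unc5c* by -0.43 (edgeR FDR = 0.031) across birth, and *Unc5c* by a further -0.55 (edgeR FDR = 0.038) from P5 to P8.

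**Figure D3:**
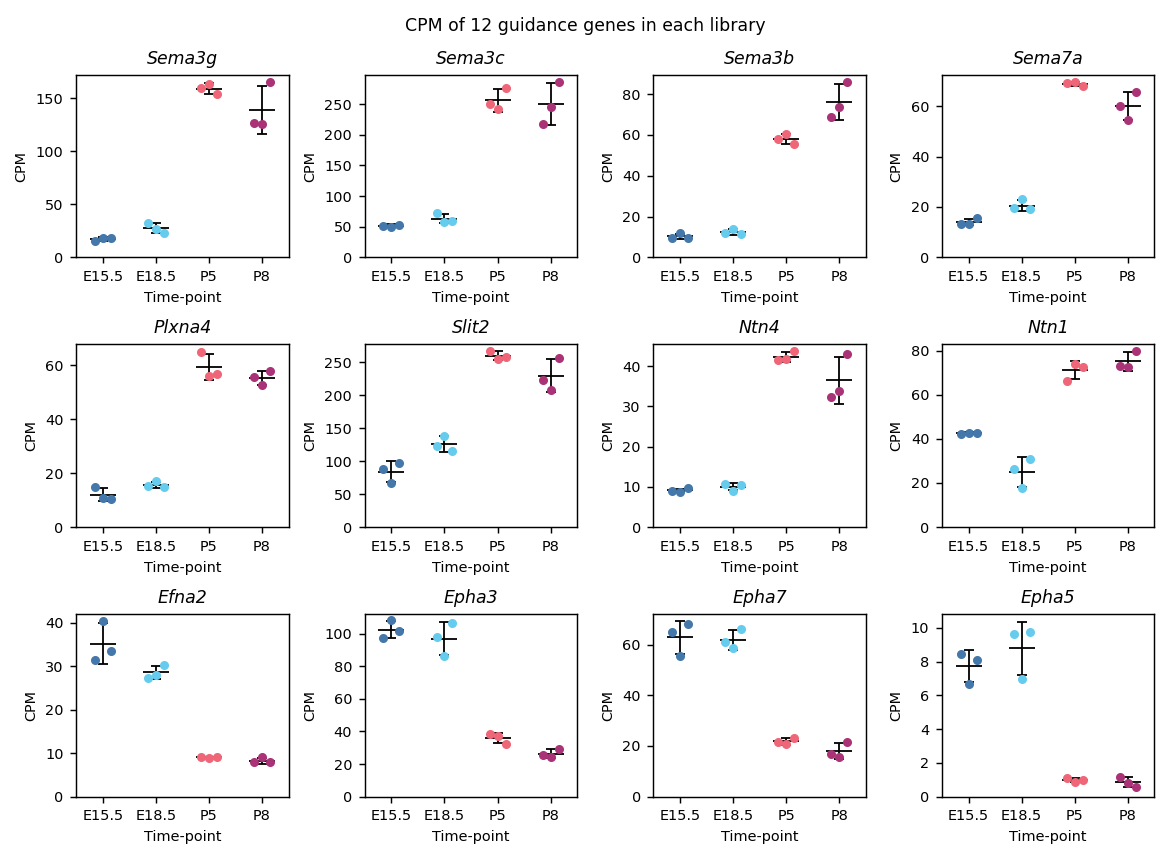
CPM of 12 members in each of the 12 libraries (coloured points), with the mean and SD of the 3 libraries of each time-point as a bar and whiskers, on axes that start at 0. *Sema3g*, *Sema3c*, *Sema3b*, *Sema7a*, *Plxna4*, *Slit2*, *Ntn4* and *Ntn1* are higher in every P5 library than in every E18.5 library, *Efna2*, *Epha3*, *Epha7* and *Epha5* are lower, and *Ntn1* alone of these dips at E18.5.

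A chosen set of members, most of them known from endothelium, was set beside the sum of the 12 endothelial markers. That sum more than doubled in CPM across birth. Per 1000 CPM of these markers, *Plxnd1* was at 249.97 ± 10.1 CPM at E18.5 and 82.6 ± 4.65 at P5 (SD, n = 3). *Ephb4* went from 183 ± 16.7 to 72.4 ± 0.832, *Robo4* from 29.7 ± 2.04 to 17.3 ± 0.0587, *Unc5b* from 55.5 ± 1.67 to 32.2 ± 0.895 and *Efnb2* from 86.6 ± 6.64 to 59.6 ± 1.83. *Efna1* went from 51.0 ± 3.09 to 28.9 ± 2.234. For these 6 genes the ranges of E18.5 and P5 did not overlap, and each was lower at P5 on this ratio. *Sema3g* went the other way, from 17.3 ± 2.39 to 46.5 ± 1.14, as did *Sema7a*, from 12.9 ± 1.18 to 20.1 ± 0.528. Of this set, only *Sema3g* and *Sema7a* had risen across birth past both cutoffs, so the contrast follows from the fold changes given above. These ratios are descriptive, and which cells held the transcripts was not measured.

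Ranges across birth were also compared without a fold cutoff. In 42 of the 61 members, the 6 postnatal libraries lay wholly above (22) or wholly below (20) the 6 embryonic ones on TMM-scaled CPM. This is 68.9% of the members, beside 59.0% of all genes tested, with 29.2% of all genes above and 29.7% below. Between E18.5 and P5 alone, the 3 libraries of each time-point did not overlap for 58 of 61 members (95.1%) beside 77.5% of all genes, and this held for all 26 called members. From E15.5 to E18.5 the libraries of 27 members did not overlap (44.3%, beside 38.3% of all genes), and from P5 to P8 those of 25 (40.98%, beside 40.2%).

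Between P5 and P8, 14 members were under an edgeR FDR of 0.05 with changes below the fold cutoff, 8 higher and 6 lower. Over all genes this share was 18%, with 9.75% higher and 8.21% lower. At an unadjusted p under 0.05 there were 24 members, beside 34% of all genes. The largest was *Sema4d*, a semaphorin of lymphocytes and other cells that binds plexin B1. It was at 31.1, 30.4 and 31.9 CPM (E15.5), 32.7, 32.9 and 34.4 (E18.5), 27.1, 21.4 and 21.7 (P5) and 47.3, 54.1 and 34.8 (P8). P8 replicates 1 and 2 stood above replicate 3, and all 3 above P5, with a log2 change of 0.93 (SE 0.14, edgeR FDR = 0.0026). It passed both cutoffs without P5 replicate 1 (1.07) and without P8 replicate 3 (1.08). *Ephb6*, a kinase-inactive receptor known from thymocytes, was at 15.6, 19.4 and 18.3 CPM (E15.5), 13.1, 17.7 and 14.9 (E18.5), 12.2, 13.9 and 11.72 (P5) and 20.8, 24.7 and 13.7 (P8). P8 replicates 1 and 2 were its highest libraries, and P8 replicate 3 lay within the P5 range, with a change of 0.63 (SE 0.19, edgeR FDR = 0.037).

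P8 replicates 1 and 2 were also the libraries with the most RNA of thymus genes. The 8 thymus genes *Cd3e*, *Cd4*, *Cd8b1*, *Ptcra*, *Rag1*, *Rag2*, *Dntt* and *Foxn1* summed to between 6.48 and 9.04 CPM at P5 and to 148, 288 and 13.4 CPM at P8, with none at 0 in any P8 library. *Foxn1*, which defines thymic epithelium, was at 0 in all P5 libraries and at 1.70, 2.79 and 0.0657 CPM at P8. Thymus genes were not alone in setting P8 replicates 1 and 2 apart from replicate 3. In P8 replicates 1, 2 and 3, cartilage genes summed to 84.0, 121 and 6.99 CPM, and skeletal muscle genes to 219, 76.1 and 9.43 CPM. Neuronal and Schwann cell genes summed to 121, 144 and 74.3 CPM in the same order. The 3 libraries rich in thymus genes were then left out of the fit, which leaves 1 library at P8, assumed to vary like the others. The log2 difference from P5 to P8 was then 0.54 for *Sema4d* and 0.093 for *Ephb6*. The part of thymus RNA in these changes was not tested. It cannot be told apart here from that of the other tissues, because the same libraries carry both. Of the 14 members under an FDR of 0.05 from P5 to P8, 3 remained under it in this fit, which were *Efna5* at 0.78 (edgeR FDR = 0.046), *Sema4b* at 0.53 (edgeR FDR = 0.048) and *Sema3b* at 0.54 (edgeR FDR = 0.032). The other 11 no longer passed, and besides *Sema4d* and *Ephb6* these were *Sema3d*, *Epha2*, *Epha3*, *Efna4*, *Efnb3*, *Plxnb2*, *Plxnc1*, *Robo2* and *Unc5c*, with FDR values between 0.10 (*Plxnb2*) and 0.53 (*Efna4*). All 14 kept their sign, and over all genes 394 of 2872 (13.7%) remained under the FDR cutoff in this smaller fit.

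**Figure D4:**
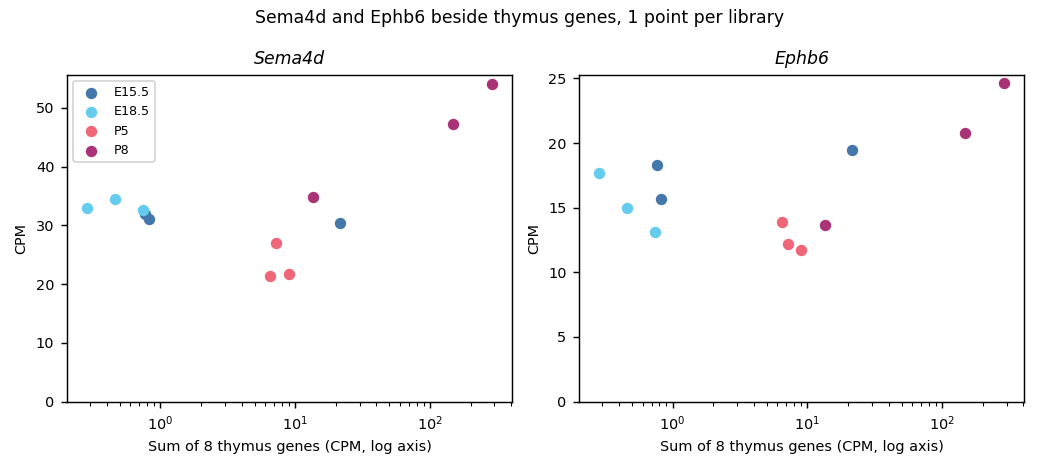
CPM of *Sema4d* (left) and *Ephb6* (right) in each library against the summed CPM of 8 thymus genes on a log axis, coloured by time-point. P8 replicates 1 and 2, at 148 and 288 CPM of thymus genes, are the highest of the 12 libraries for both members, and P8 replicate 3 lies close to the other libraries.

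Binding partners and downstream proteins of the 3 systems were described in the same fit. Over all genes tested, 17.5% rose and 9.34% fell across birth, or 26.8% in either direction. Of 23 tested partners of semaphorins and plexins, 5 rose and 4 fell. *Nrp1*, the neuropilin that serves *Sema3a*, rose by 1.15 (SE 0.0886, edgeR FDR = 1.9e-07). The small GTPase *Rnd1*, which binds plexins, was at -1.40 (SE 0.38, edgeR FDR = 0.021) before birth and at 2.43 (SE 0.38, edgeR FDR = 8.6e-05) across it. The cytoplasmic phosphoproteins *Crmp1* and *Dpysl5*, of the collapsin response family, fell by 2.33 (SE 0.18, edgeR FDR = 1.7e-07) and 2.14 (SE 0.13, edgeR FDR = 3.5e-08), and *Cd72*, a receptor for *Sema4d* on B cells, rose by 1.81 (SE 0.49, edgeR FDR = 0.0050). Of 24 partners of ephrins and Eph receptors, 2 rose and 1 fell, a smaller share than the 26.8% of all genes. *Arhgef15*, an endothelial exchange factor, rose by 1.25 (SE 0.0859, edgeR FDR = 7.4e-08), and the adaptors *Grip2* and *Grip1* changed by 1.92 (SE 0.69, edgeR FDR = 0.025) and -1.36 (SE 0.13, edgeR FDR = 9.2e-07).

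Of 22 tested partners of Slits, Robo receptors and netrins, 4 rose and 4 fell, beside 26.8% of all genes in either direction. *Flrt3*, a membrane protein that binds *Robo1* and Unc5 receptors, rose by 2.19 (SE 0.14, edgeR FDR = 4.8e-08), and its relative *Flrt2* fell by 1.80 (SE 0.11, edgeR FDR = 4.0e-08). *Adora2b*, an adenosine receptor reported to bind netrin-1, rose by 2.38 (SE 0.21, edgeR FDR = 7.1e-07). *Srgap3*, a GTPase-activating protein that binds Robo receptors, fell by 2.13 (SE 0.21, edgeR FDR = 1.4e-06), and the actin-binding *Ablim1* rose by 1.60 (SE 0.0717, edgeR FDR = 3.5e-09). The median log2 fold change was 0.46, -0.0013 and -0.0013 in the 3 lists in this order, beside -0.0024 over all genes. From E15.5 to E18.5 *Rnd1* and *Grip2* (-2.11) were the only partners past both cutoffs, beside 3.04% of all genes. From P5 to P8 none was, beside 2.96%.

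Percent spliced in (PSI), the share of an event's reads that include the alternative sequence, was described for the events that the study paired with a member, which are 1 exon of *Robo2* and 1 intron of *Sema4d*. Both were chosen by the study on these libraries, so no test is given. The *Robo2* exon was included in 31.2, 31.7 and 31.5% at E15.5, 26.2, 18.7 and 39.6% at E18.5, 8.26, 9.48 and 5.43% at P5 and 5.32, 20.2 and 10.4% at P8, on 61 to 149 reads per library. The P5 libraries were all below the embryonic ones, and P8 replicate 2 lay above E18.5 replicate 2. The mean difference from E18.5 to P5 was -20.5 percentage points, while the CPM of the whole gene moved by 0.32 on the log2 scale.

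The *Sema4d* intron was retained in 0, 0 and 4.76% at E15.5, 0, 0 and 2.27% at E18.5, 21.2, 1.49 and 18.8% at P5 and 28.1, 18.1 and 31.8% at P8. The 4 libraries at 0 had 95% Wilson upper limits between 6.64 and 8.97%, which cover counting error only. P5 replicate 2 lay within the embryonic range, and the 3 libraries of P8 were above all 6 embryonic ones. Depth limits this event, with 20 to 85 reads per library, and the interval of P5 replicate 1 ran from 8.07 to 41.6%.

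**Figure D5:**
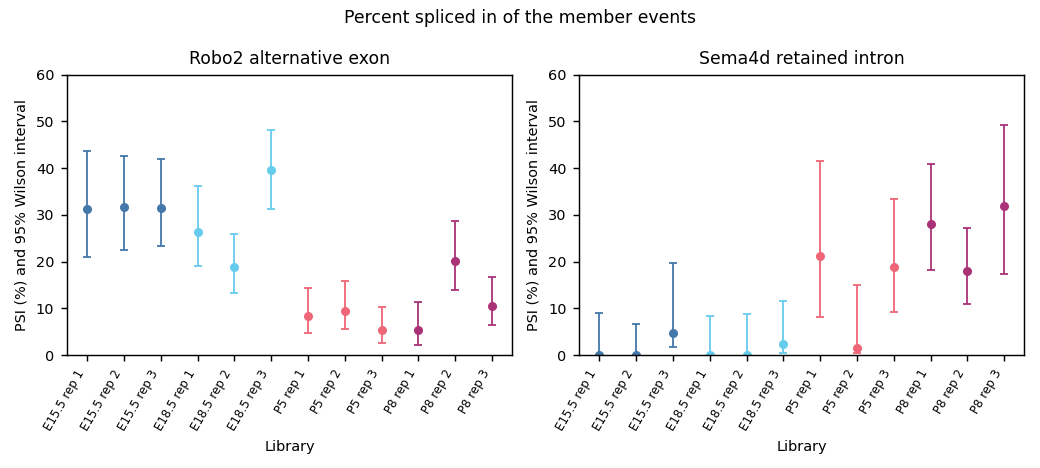
Percent spliced in of the *Robo2* exon (left) and the *Sema4d* intron (right) in each library, with 95% Wilson intervals from the corrected reads. The *Robo2* exon is between 5.43 and 9.48% in the P5 libraries against 18.7 to 39.6% at E18.5, and the *Sema4d* intron is between 18.1 and 31.8% at P8 against at most 4.76% in the embryonic libraries.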

How the data were processed

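RNA of 12 whole-lung samples (E15.5, E18.5, P5 and P8, 3 each) was sequenced as 101 nt paired-end reads. The authors aligned the reads to mm10 with TopHat2 2.1.1 and Bowtie2 2.3.4 and deposited HTSeq 0.10.0 read counts of 16152 genes on Gencode annotation. They also deposited CPM for 51825 genes, scaled by the mapped reads of each library, and the percent spliced in of 661162 events. The whole reads behind the CPM were recovered for 100% of values within 0.1 read and equalled the counts. Counts were fitted with edgeR 4.0.16 (R 4.3.3) with TMM. The fit was tested on simulated data. Alternatives were other scalings, no filter, DESeq2 1.42.0, other edgeR tests and cutoffs, a replicate block and libraries left out. Symbols were taken from the reference for 16136 of 16152 identifiers, and lengths and coordinates from Gencode on GRCm38. Replicate numbers did not pair the samples. The members, gene lists and partner lists were chosen with earlier results of these data known. Values in every library are given for members past both cutoffs between adjacent time-points (at most 30 per comparison) and for the highest member of each family. *Sema3e*, *Efna5*, *Efnb2*, *Sema4d* and *Ephb6* are outside this rule and were added with their values known. Of the partners, at most 5 per list and comparison are named, and marker genes only beside a result they move with. Other marker lists checked were epithelial, mesenchymal, neuronal, mesothelial, cartilage and skeletal muscle genes. From E18.5 to P5, 2 of 10, 2 of 12, 3 of 9, 2 of 6, 0 of 5 and 2 of 5 tested genes of these lists rose, and 1, 0, 1, 1, 4 and 0 fell. From P5 to P8, 2, 1, 4, 6, 2 and 0 rose in the same order, and none fell. From E15.5 to E18.5, 2 epithelial genes rose, and 1 neuronal, 2 mesothelial and 1 skeletal muscle gene fell. All 6 cardiac muscle genes fell over that interval.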

Additional observations from a re-analysis of the deposited data

Results flagged for a closer look

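In all, 4 guidance genes were outside the count table but had more than 3 reads in the CPM table of all genes. *Robo3*, a Robo receptor of commissural axons, had 295 reads over the 12 libraries, with ranges of 0.484 to 1.28 CPM (E15.5), 0.366 to 0.595 (E18.5), 0.124 to 0.378 (P5) and 0.0410 to 0.229 (P8). Its E15.5 libraries overlapped those of E18.5 and lay above all postnatal ones. *Slit1* had 213 reads and was between 0.129 and 0.845 CPM in every library, with E15.5 replicate 2 the highest. *Epha10* had 17 reads, with the highest level in E15.5 replicate 2 (0.177 CPM), and *Epha6* had 10 reads, all at P8. These genes were not tested, and no explanation was examined.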

How the results depend on the processing

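The count of called members from E18.5 to P5 was 26, and it lay between 20 (fold change tested against the cutoff) and 27 in all alternatives that kept a fold cutoff, against 52 with the FDR alone. The members lost at 20 were *Sema3d*, *Sema3f*, *Sema4g*, *Sema6a*, *Slit2* and *Unc5d*. Their edgeR FDR in that test lay between 0.10 (*Unc5d*) and 0.77 (*Sema6a*). From E15.5 to E18.5 the count of 1 became 0 when the fold change was tested against the cutoff and 20 with the FDR alone, and with single libraries left out it was between 1 and 2, the 2 without E18.5 replicate 1, where *Plxnb3* was added. From P5 to P8 it was 0 in edgeR (14 with the FDR alone, and 0 with DESeq2), and with single libraries left out between 0 and 1, the 1 being *Sema4d* without P5 replicate 1 or P8 replicate 3. At an unadjusted p under 0.05 there were 24 members from P5 to P8, beside 34% of all genes. From E15.5 to P8 it was 24, and 54 with the FDR alone. No called member reversed its direction in any alternative. With the replicate block the counts of called members stayed at 1, 26, 0 and 24. The numbers do not pair the samples: same-number deviations correlated between -0.34 and 0.30, with 3 of 18 pairs over 0.1. With library size in place of TMM, the median of all genes from E18.5 to P5 moved from -0.0024 to -0.071 and 27 members were called, 13 higher and 14 lower. An alternative chosen after seeing the data, the test on reads recovered from CPM, gave 1, 26, 0 and 24. Without the 3 libraries rich in thymus genes, from E15.5 to P8 *Sema4g* lost its call (-1.10 to -0.87), *Epha8* (0.89 to 1.21) and *Sema5b* (-0.91 to -1.24) gained one, and the count was 25. Without the filter on low counts *Ntn5* was called as well. Members near the cutoff (*Sema6a*, *Sema3f*, *Slit2*, *Sema4g*, *Efna5*, *Sema6b*), *Sema3d* and *Unc5d*, and those on few reads (*Plxnb3*, *Epha8*, *Plxna4os1*) are the least certain. The cause of the moves was not tested.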
